A study of Mus musculus with 2 samples.

Results

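The genes described here are 7 genes of growth arrest and its control in skeletal muscle: the stress genes Gadd45a, Gadd45b and Gadd45g, the cyclin-dependent kinase inhibitor Cdkn1a (p21), the transcription factor Trp53 (p53), its ubiquitin ligase Mdm2, and the histone deacetylase Hdac4. They were taken by name, as the non-control probes that carry 1 of these gene names on both arrays, which gave 9 probes of the 55681 on the array design and 7 of 34740 gene names. The data are 2 one-colour arrays. Both hold RNA from the muscle of CD2F1/Slc males, 11 weeks old. The control array stands for PBS injection, and the C26 array for 1000000 colon 26 (C26) carcinoma cells, in 100 µL of PBS, placed under the skin of the flank, a mouse model of cancer cachexia. The series concerns muscle that resists growth stimuli in cachexia. The sources used here do not say which muscle it was, when it was sampled, or whether an array holds RNA of 1 mouse or of several. With 1 array per group no test between conditions was possible, and every ratio below describes this pair of arrays.

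Growth arrest genes act where a cell stops dividing, but several of them also respond in muscle fibres, which no longer divide. The GADD45 proteins are small stress-induced proteins that bind p21, PCNA and cyclin B with CDK1, and that activate the kinase MAP3K4 upstream of p38 and JNK. In mouse muscle, Gadd45a and p21 are known to be induced when fibres are denervated, immobilised or starved, with ATF4 and HDAC4 among the factors placed upstream. p53 activates transcription of both Cdkn1a and Mdm2, and the MDM2 protein in turn marks p53 for destruction.

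Cdkn1a and Gadd45a were more than 2-fold higher in the C26 array, and Hdac4 was just under 2-fold higher. Gadd45g was 1.40-fold higher, whereas Gadd45b, Mdm2 and Trp53 lay within 1.16-fold of the control array. All 7 genes were measured, meaning that the brightest probe of the gene was well above background on both arrays. Of the 7, 2 passed 2-fold upward and 0 downward, where 1.25% of all 19668 measured genes passed it upward and 1.15% downward. At 1.5-fold the counts were 3 upward, Hdac4 being the third, and 0 downward, where the shares of measured genes were 4.37% and 4.83%. At 3-fold they were 1, Cdkn1a, and 0, where the shares were 0.346% and 0.229%. The median log2 ratio of the 7 genes was 0.49 and that of all measured genes 0.04.

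**Figure D1:**
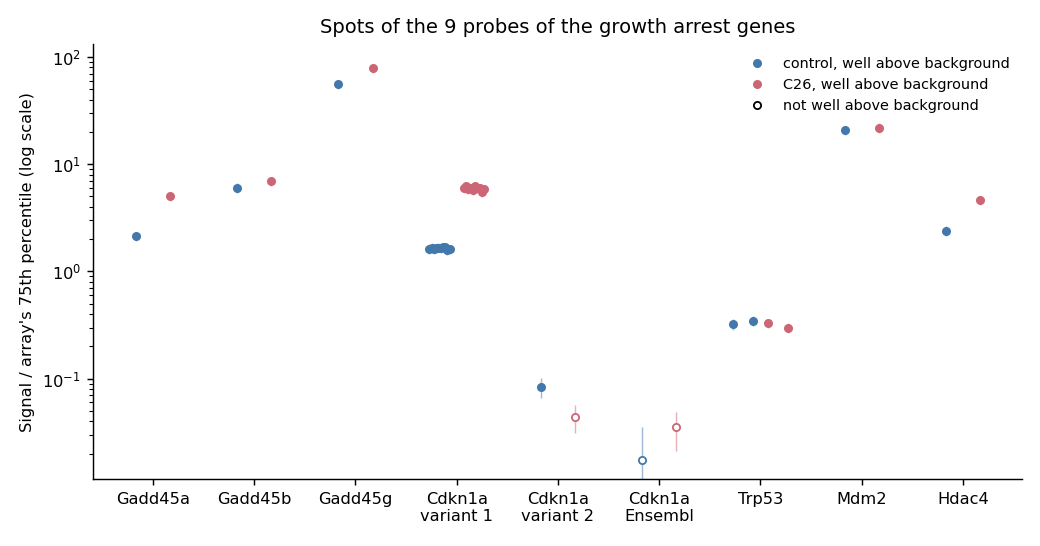
Each point is 1 spot, plotted as processed signal divided by the 75th percentile of its array on a log scale, with the scanner software's error as the bar. Blue is the control array, red the C26 array, and open points were not well above background. The 10 spots of the Cdkn1a variant 1 probe stand in separate groups on the 2 arrays, and those of Trp53 overlap.

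Cdkn1a encodes p21, which binds and inhibits cyclin-dependent kinases and holds cells in G1. It has 3 probes on the array. The probe listed under transcript variant 1 (chr17:29237377-29237436, mm9, plus strand, 1619 bases into the transcript) was printed in 10 spots. These spots had signals of 416 to 441 with a median of 433 for control, and of 1382 to 1561 with a median of 1484 for C26. The highest control spot thus lay below the lowest C26 spot, and the standard deviation between copies, on the log2 scale, was 0.03 for control and 0.05 for C26. After each array was divided by the 75th percentile of its probe signals, 262 for control and 249 for C26, the log2 ratio was 1.85 (error 0.06), a 3.62-fold higher level in the C26 array. The copies measure the same RNA and are no replicates of the condition. Among measured genes this ratio ranked 43 from the highest of 19668.

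The other Cdkn1a probes were dim. The probe listed under transcript variant 2 (chr17:29227986-29228045, mm9, plus strand) lies 55 bases into its transcript and 9391 bases upstream of the bright probe. Its signal was 22.1 (error 4.58) for control and 11.0 (error 3.2) for C26. Only the control spot was well above background, so the value is a nominal bound: C26 was lower by 1.49-fold or more, in the opposite direction from the bright probe. A bound is computed against the lowest signal that was well above background on the dim array, here a signal of 14.1. Such a bound is nominal, because spot errors are left out and brighter spots can still fail the background call. On the control array that lowest signal was 18.5, yet the marker genes Krt8 and Krt20, at 19.3 and 21.1, were not well above background. The third probe (chr17:29235299-29235358, mm9, plus strand), listed under an Ensembl transcript, had signals of 4.61 and 8.77 and was above background on neither array, so no ratio is given. The last 30 of the 60 bases of each probe, printed in lower case, show that they read different stretches of Cdkn1a RNA.
Variant 1 probe: gctgatcctttctcagtgttgaataccgtg
Variant 2 probe: acgtcccactttgccagcagaataaaaggt
Ensembl transcript probe: tcttgtgtttcagccacaggcaccatgtcc

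RefSeq (GRCm38.p6) lists 2 start sites for Cdkn1a, 2790 bases apart on chromosome 17. Their upstream sequences are shown because the probes are listed under different transcripts of this gene. Which transcripts each probe can read was not tested, so the bright probe may also read variant 2. The probes therefore do not assign a ratio to either start site. Capitals mark a 20-base p53 site in the upstream window and GC boxes in the downstream window.
Upstream start, chr17:29090729-29090978, plus strand: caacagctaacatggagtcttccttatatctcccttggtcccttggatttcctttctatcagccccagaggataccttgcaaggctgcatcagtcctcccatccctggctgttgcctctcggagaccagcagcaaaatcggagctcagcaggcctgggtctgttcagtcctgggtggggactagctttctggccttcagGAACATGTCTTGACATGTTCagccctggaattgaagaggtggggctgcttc
Downstream start, chr17:29093519-29093768, plus strand: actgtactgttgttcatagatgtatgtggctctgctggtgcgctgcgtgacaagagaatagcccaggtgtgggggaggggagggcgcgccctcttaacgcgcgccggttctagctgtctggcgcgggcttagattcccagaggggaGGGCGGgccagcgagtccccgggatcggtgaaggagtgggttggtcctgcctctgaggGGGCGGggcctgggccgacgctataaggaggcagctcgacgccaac

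The p53 site occupies positions -51 to -32 relative to the upstream start site and departs from the p53 consensus at 1 of its 20 bases. Such a site, made of adjacent 10-base p53 motifs with at most 2 mismatches, stands in 0.66% of the 32851 promoter windows of the RefSeq table, and among the 8 windows of the 7 genes in this one alone. A single 10-base p53 motif without mismatch, found in 7.13% of all windows, was present in the upstream Cdkn1a window at -73 to -64 and at -51 to -42, and upstream of Gadd45a, Trp53 and Mdm2. A match is a description of the letters and does not show that p53 was bound.

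Gadd45a had the highest ratio, C26 over control, of the 3 GADD45 genes. Its probe (chr6:66985376-66985435, mm9, minus strand) had a signal of 561 (error 56.2) for control and 1250 (error 125.0) for C26. The C26 spot is the higher by more than the sum of both errors. The log2 ratio was 1.23 (error 0.20), or 2.34-fold, ranking 133 from the highest. Each GADD45 probe had 1 spot per array. The promoter window of Gadd45a is shown because it holds the octamer motif, known as a site of OCT-1, on both strands around a CCAAT box (capitals, with a GC box further upstream).
Gadd45a, chr6:67037408-67037657, GRCm38.p6, minus strand: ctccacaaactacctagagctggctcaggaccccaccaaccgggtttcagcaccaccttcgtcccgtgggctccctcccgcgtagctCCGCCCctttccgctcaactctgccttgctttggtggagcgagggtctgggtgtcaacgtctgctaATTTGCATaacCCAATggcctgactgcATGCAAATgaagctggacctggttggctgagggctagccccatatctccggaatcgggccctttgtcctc

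Gadd45g, which like its relatives is induced by stress and cytokines, had a probe (chr13:51943733-51943792, mm9, plus strand) with a signal of 14660 for control and 19584 for C26. The C26 spot was higher, at a log2 ratio of 0.49 (error 0.20), and 6.43% of measured genes had a ratio at least as high. Gadd45b, known as an NF-kB and TGF-beta target (chr10:80394367-80394426, mm9, plus strand), had signals of 1581 and 1741, close to each other on this scale. Its log2 ratio was 0.21 (error 0.20). Within this pair of arrays the ratio of Gadd45a exceeded that of Gadd45b by 1.02 (error 0.29, 95% interval 0.45 to 1.58) and that of Gadd45g by 0.74 (interval 0.17 to 1.30). The ratios of Gadd45g and Gadd45b could not be told apart (Gadd45b minus Gadd45g, -0.28, interval -0.84 to 0.29). These intervals cover the measurement of spots alone, as do all errors here.

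Hdac4 encodes a class IIa histone deacetylase that moves between cytoplasm and nucleus and, in denervated muscle, represses Dach2 and so releases myogenin. Its probe (chr1:93829554-93829613, mm9, minus strand) had a signal of 628 (error 63.0) for control and 1158 (error 116) for C26. The C26 spot was the higher by more than both errors together. The log2 ratio was 0.95 (error 0.20), a 1.94-fold difference that ranked 284 from the highest. It was thus not counted as 2-fold higher, but its error spans that threshold. The ratio of Cdkn1a exceeded that of Hdac4 by 0.90 (interval 0.48 to 1.32), while those of Gadd45a and Hdac4 could not be told apart (difference 0.27, interval -0.29 to 0.84). The window upstream of Hdac4 is shown because it holds 4 GC boxes, more than any other window of the 7 genes; these and its CCAAT boxes are in capitals. Its GC content was 65.2%, among 52.8% to 65.6% for the windows of the 7 genes and a median of 52.4% over all windows.
Hdac4, chr1:92180342-92180591, GRCm38.p6, minus strand: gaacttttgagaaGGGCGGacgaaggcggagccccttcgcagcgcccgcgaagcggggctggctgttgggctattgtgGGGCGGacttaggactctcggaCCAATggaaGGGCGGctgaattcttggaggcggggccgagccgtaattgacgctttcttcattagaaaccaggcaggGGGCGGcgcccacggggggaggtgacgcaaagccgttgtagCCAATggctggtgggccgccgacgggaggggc

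Trp53 and Mdm2 differed little between the arrays. The Trp53 probe (chr11:69404204-69404263, mm9, plus strand) was printed in 2 spots, with signals of 84.4 and 91.1 for control and of 82.1 and 74.0 for C26. After scaling these became 0.322 and 0.347 for control and 0.329 and 0.297 for C26, so the spots of the 2 arrays overlap. The log2 ratio was -0.10 (error 0.16). Mdm2 (chr10:117126010-117126069, mm9, minus strand) had signals of 5464 and 5437, nearly the same on both arrays. Its log2 ratio was 0.07 (error 0.20), a sign that turned with quantile normalization, with loess and in the deposited value table. The deposited value was that of quantile normalization, -0.0234 in both. The ratio of Cdkn1a exceeded that of Trp53 by 1.95 (interval 1.62 to 2.28) and that of Mdm2 by 1.79 (interval 1.37 to 2.21). The p53 protein is regulated largely by its stability and modification, which an RNA array does not measure.

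**Figure D2:**
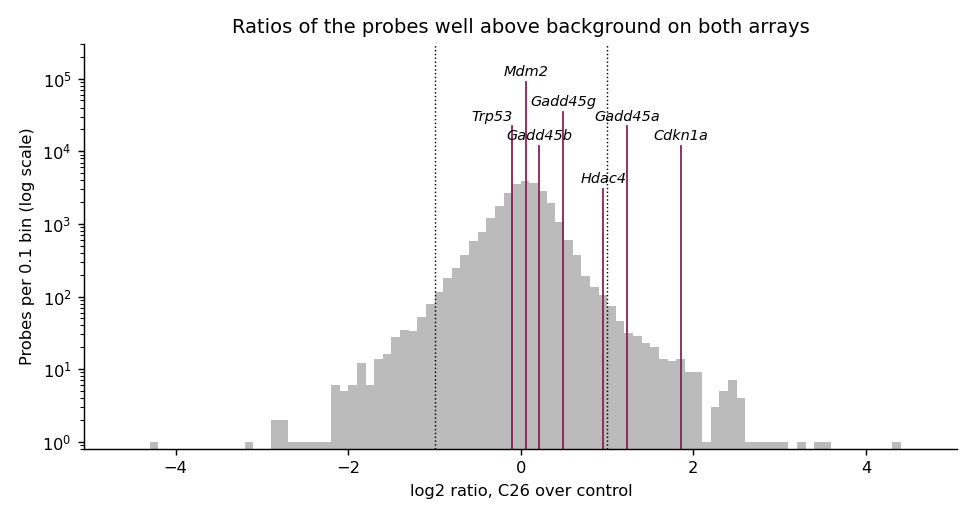
The grey bars count all probes well above background on both arrays by their log2 ratio, C26 over control, in bins of 0.1, with the counts on a log scale; dotted lines mark 2-fold in each direction. Vertical lines mark the 7 genes: Cdkn1a at 1.85, Gadd45a at 1.23 and Hdac4 at 0.95 stand in the upper tail, and Gadd45b, Mdm2 and Trp53 stand within the bulk.

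Motifs were searched on both strands of the 250 bases before each start site, for all 7 genes and all 32851 windows of the table. The octamer ATTTGCAT was present upstream of Gadd45a and Gadd45g and in 1.6% of all windows. The FoxO motif GTAAACA was found upstream of Mdm2 alone among the 7 genes, and in 3.17% of all windows. CCAAT was present for 6 of the 7 genes (33.85% of windows) and the GC box GGGCGG for 5 (32.74%). The TATA box TATAAA was found for Gadd45b, Gadd45g and, on the reverse strand far from the start, Trp53 (12.37%). The general E-box CANNTG was found for 5 genes (66.22%); it includes the MyoD-type E-box CAGCTG, found for Gadd45g and Mdm2 (13.0%), and the CLOCK-type E-box CACGTG, found for Gadd45b and Gadd45g (6.02%). No window of the 7 genes held the cyclic AMP response element (1.55%), the STAT motif TTCNNNGAA (7.02%), or the MEF2 (3.2%) or NF-kB (1.41%) motif searched, which says only that these letters are not in these windows. The one motif found for Cdkn1a, Gadd45a and Hdac4 alike was the GC box, and Gadd45b and Mdm2 hold it too.

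Other known p53 targets mostly stayed within 2-fold of the control array, with more ratios above 0 than below. Of all measured genes, 1.25% passed 2-fold upward and 1.15% downward, with a median log2 ratio of 0.04. Of 30 listed targets, 26 were measured. Of these, 18 had ratios above 0, or 16 with median scaling, where 56.45% of all measured genes did in the main setting. Their median log2 ratio was 0.16, with 0 past 2-fold downward and 1 upward. The 1 gene was Phlda3, a p53-induced inhibitor of AKT, with signals of 17228 and 33404 and a log2 ratio of 1.03 (error 0.20); it fell short of 2-fold under quantile, median, loess and background-restricted percentile scaling and in the deposited table. Btg2, an antiproliferative gene, stood at 0.79, Sesn1, a sestrin that restrains mTORC1, at 0.75, and the death receptor Fas at 0.67. The apoptosis genes Bax and Bbc3 (PUMA) had 0.08 and 0.03, and the repair genes Ddb2 and Xpc 0.20 and 0.39. The lowest were Trp53i11 at -0.49, Steap3 at -0.33 and Ccng1 (cyclin G1) at -0.32; a second Steap3 probe gave -0.56. Eda2r, a TNF-family receptor, stood above background for C26 only, with signals of 11.4 and 21.0, a nominal bound of 1.19-fold higher. Of 20 regulators and relatives of p53, 19 were measured, with a median of -0.04. Chek2, a kinase of the DNA damage response, was the 1 gene at least 2-fold lower, with dim signals of 54.0 and 24.4 (log2 ratio -1.08, error 0.29), but not with normexp background correction. Mdm4, the partner of Mdm2, had 0.48 with the brightest probe and 0.50 with another, Atm 0.13 and Usp7 0.14 (another Usp7 probe -0.09). Cdkn2a, whose locus encodes the MDM2 inhibitor ARF as well as p16, had -0.90 (error 0.29) from signals of 52.6 and 26.8.

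**Figure D3:**
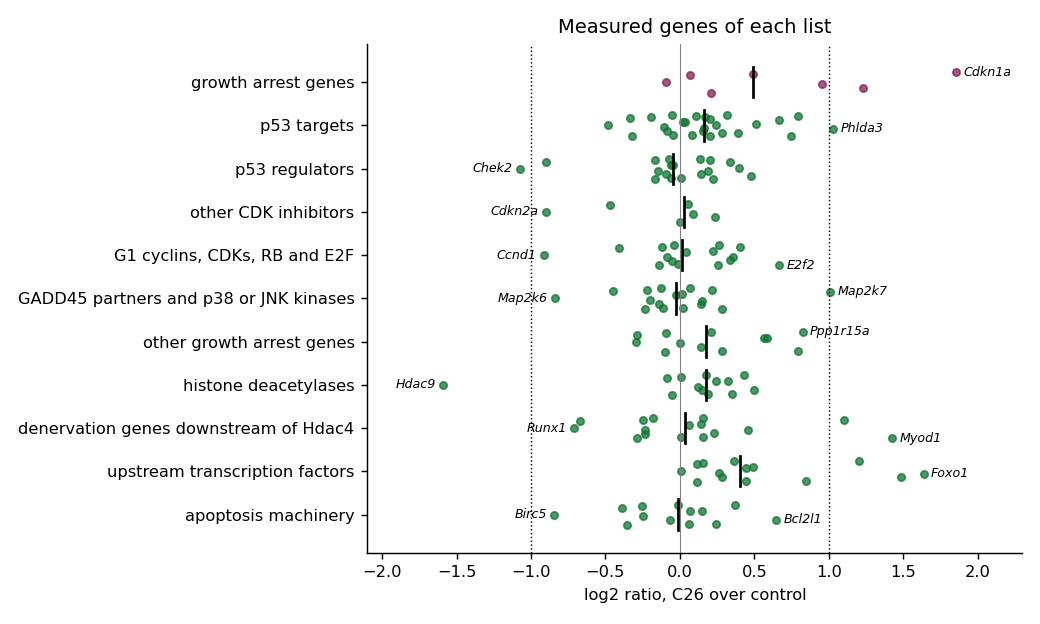
Each point is 1 measured gene of a list, at its log2 ratio, C26 over control; the black bars are list medians, dotted lines mark 2-fold, and the names are the lowest and highest gene of a list where these lie beyond 0.6 in size. The growth arrest genes (median 0.49) and the upstream transcription factors (median 0.40) have the highest medians among the lists shown, and the other medians lie between -0.04 and 0.18.

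No other CDK inhibitor had a ratio near that of p21. Of the other 7, 6 were measured and none was 2-fold different, where 1.25% of all measured genes were 2-fold higher and 1.15% lower. Cdkn1b (p27) had 0.23 and Cdkn1c (p57) 0.06, Cdkn2d 0.09 and Cdkn2c -0.0006, while Cdkn2b and Cdkn2a were lowest at -0.47 and -0.90. Of the 18 listed G1 cyclins, CDKs, RB and E2F genes, 16 were measured and none was 2-fold different, with a median of 0.01. Ccnd1 (cyclin D1), which drives CDK4 and CDK6, was the lowest at -0.91 (signals 367 and 186), followed by Ccnd2 at -0.41. E2f2 was the highest at 0.67, followed by the pocket protein gene Rbl2 at 0.41. Rb1, measured in several spots, had 0.25 (error 0.06), and Pcna, a partner of p21 and of GADD45 proteins, 0.04. The median signs of both lists turned under other scalings.

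Genes for the partners of GADD45 proteins and the p38 and JNK kinases had a median of -0.03 over 17 measured of 19. Map2k7, a kinase that activates JNK, was the 1 member at least 2-fold higher, where 1.25% of all measured genes were. It had signals of 141 and 270 and a log2 ratio of 1.01 (error 0.21). With normexp, median, loess and background-restricted percentile scaling it fell short of 2-fold. Map2k6, which activates p38, was the lowest at -0.84 (signals 3062 and 1628), and Map2k3, with the same substrate, had 0.28. Map3k4, which GADD45 proteins bind directly, had 0.02 and Mapk14 (p38 alpha) -0.20. Ccnb1 stood above background for C26 only, with a nominal bound of 1.17-fold higher, and Cdk1 for neither. Tet1, which oxidises methylcytosine, had -0.14 with its brightest probe and -1.32 with another. Its relative Tet2 had 0.15, with 0.93 and 0.23 from other probes, and Tet3 -0.24. Among 12 further growth arrest genes, all measured, none was 2-fold different and the median was 0.18. Ppp1r15a (GADD34), which lets translation resume after stress, had 0.83, Tob2 0.79 and Gas5 0.59, although the other Gas5 probes gave -0.21 and -0.07. Ddit3 (CHOP, once called GADD153) and Gas1 were lowest, both at -0.29.

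The histone deacetylases held genes on both sides. Of 13 measured deacetylases and corepressors, 10 had ratios above 0, where 56.45% of all measured genes did, and the median was 0.17, where that of all measured genes was 0.04. Hdac5, of the same class IIa as Hdac4, had 0.43 and Hdac7 0.0039. Hdac9, the further class IIa member, was the 1 gene at least 2-fold lower, where 1.15% of all measured genes were. It had signals of 228 and 72.1 and a log2 ratio of -1.59 (error 0.22), and with normexp it fell short of 2-fold. Hdac1, of class I, had -0.09, with 0.07 and 0.04 from its other probes. Among genes placed downstream of Hdac4 in denervated muscle, 17 had a probe and 16 were measured. Of these, 2 were at least 2-fold higher, where 1.25% of all measured genes were. The 2 were the myogenic factors Myod1, at 1.42, and Myog, at 1.099 (error 0.06 each), of which 1 stayed past 2-fold with normexp. The acetylcholine receptor subunits were split, with Chrna1 at 0.46, Chrnb1 at 0.16, Chrne at -0.23, Chrnd at -0.24 and Chrng at -0.67, and Runx1 was the lowest at -0.71. Dach2 stood above background for C26 only, with signals of 14.13 and 15.95. The list median of 0.03 changed sign under some scalings.

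Transcription factors known to act upstream of these genes in muscle or under stress had a median of 0.40. Of 15 listed, 14 were measured and all 14 had ratios above 0, where 56.45% of all measured genes did, and 3 were past 2-fold upward, where 1.25% of measured genes were. Foxo1 had 1.64 and, with another probe, 1.70, while the C/EBP factors Cebpd and Cebpb had 1.49 and 1.20. Foxo3 stood above background for C26 only, with a nominal bound of 2.05-fold higher. Atf4 had 0.45 and, with another probe, 0.31, Atf3 0.85 and Klf15 0.45, while Nfkb1, at 0.0095, and Rela, at 0.11, were lowest. Nfkb1 was below 0 with normexp, median, loess and background-restricted percentile scaling, and other probes of Nfkb1 and Smad4 gave -0.33 and -0.17. With 2 arrays, likeness of pattern over samples cannot be measured. By ratio alone, the nearest of the 151 measured pathway genes to Gadd45a were Cebpb (1.20), Myog (1.099) and Myod1 (1.42), and the nearest to Cdkn1a were Foxo1 (1.64), Cebpd (1.49) and Myod1.

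Skeletal muscle markers had high signal on both arrays, with Acta1 (skeletal actin) at 421408 and 410814 and Ckm (muscle creatine kinase) at 244727 and 241490. None of the 12 was 2-fold different, and their median of 0.05 turned negative under some scalings. Markers of other cell types moved beside the 7 genes. The summed scaled signal of 8 erythroid markers was 90.6 for control and 124 for C26, most of it from Hemgn; Slc4a1 and Alas2 stood at 2.43 and 2.31, and Epb42 and Rhag were above background on neither array. The sum of 8 neutrophil markers was 128 and 112, most of it from Csf3r; S100a8 and S100a9 stood at 2.46 and 2.35, Ly6g at 0.36, Camp at -0.02 and Csf3r at -0.26. Retnlg stood above background for C26 only, with a nominal bound of 2.79-fold higher, and Ngp and Ltf were above background on neither. Of all measured genes, 56.45% had ratios above 0, 1.25% passed 2-fold upward and 1.15% downward. Macrophage markers (sum 52.0 and 41.9) had 7 of 7 measured below 0 by the brightest probe, with 1 at least 2-fold lower. Other probes gave -0.56 and 0.03 for Csf1r, -0.22 and 0.02 for Itgam and -0.43 for Adgre1. Cd163 stood above background for C26 only, with signals of 9.17 and 15.77. Fibroblast markers (sum 614 and 407) had 8 of 8 below 0 with 2 at least 2-fold lower. Endothelial markers (sum 83.2 and 111) had 8 of 8 above 0, or 5 of 8 with median scaling, but another Kdr probe gave -0.63 (error 0.06) where the brightest gave 0.0147; Cldn5 was past 2-fold at 1.2986. Adipocyte markers (sum 193 and 261) had 6 of 8 above 0, or 5 of 8 with median scaling. Satellite cell markers, of the precursors in muscle that can divide, had sums of 41.2 and 46.4, most of it from Itga7. Of the 6 measured, 4 were below 0 and none was 2-fold different, with a median of -0.17. Cdh15 was the highest at 0.65, with signals of 1176 and 1754, and Megf10 the lowest at -0.79. Pax7 stood at -0.20, and Myf5 was above background on neither array. The lymphocyte sum was 22.5 and 24.7, with Cd3d, Cd8a and Ms4a1 above background on neither array. Carcinoma markers had sums of 3.24 and 4.13, with Epcam, Krt8 and Krt20 above background on neither array. The part of these cells in the ratios of the 7 genes was not tested. In bulk tissue, fewer cells of a type and less RNA per cell cannot be told apart.

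The ratios of the 7 genes moved little with the processing, but not every alternative could move them. Where a gene has 1 probe, the averages over probes equal the main value by construction. No spot of the 7 genes was flagged as an outlier, so keeping outliers could change only the scaling. The deposited table gave nearly the same ratios as quantile normalization. Across 9 alternatives Gadd45a lay between 1.153 and 1.23, Hdac4 between 0.83 and 0.95, Gadd45g between 0.37 and 0.49, Gadd45b between 0.14 and 0.21, Mdm2 between -0.03 and 0.07 and Trp53 between -0.16 and -0.08. Cdkn1a lay between 1.70 and 1.85, except for the mean over its 3 probes, at 0.64, which weighs the dim probes like the bright one. In the authors' deposited value table the bright Cdkn1a probe had 425 and 1487, Gadd45a 553 and 1253, and Hdac4 624 and 1156.

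**Figure D4:**
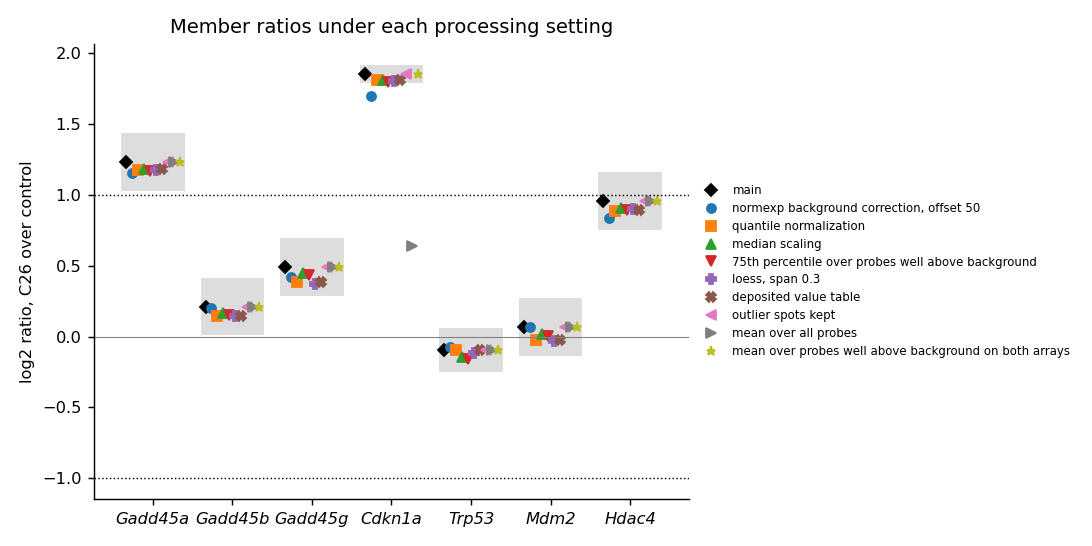
For each gene, the points give the log2 ratio, C26 over control, under the main setting (black diamond) and 9 alternatives; the grey band is the main value with the scanner error on either side, and dotted lines mark 2-fold. Cdkn1a stays between 1.70 and 1.85 apart from the mean over its 3 probes at 0.64, Gadd45a stays above 1 and Hdac4 below 1.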

How the data were processed

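Gene expression was measured with total RNA labelled with Cy3 on 2 Agilent arrays, 1 control and 1 C26. Per the file headers, Agilent Feature Extraction 10.7.1.1 made the files, whereas the submitters' processing notes list 9.5.1.1; the array design is on mm9, and both arrays carry the same scan time. The deposited scanner files hold linear intensities per spot, background-subtracted and detrended within each array per the file headers. The deposited flags (the other columns used) mark outliers, saturation and spots well above background; of non-control spots, 50.37% (control) and 53.78% (C26) were well above background, 31.88% and 25.55% carried a surrogate for a signal too low to measure, and none was saturated. No source used here says how the authors made the deposited table of 1 intensity per probe.

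Spots flagged as outliers were left out (110 and 91), spots of a probe averaged on the log2 scale, and each array's 75th percentile over its probes subtracted, which kept 55680 probes. The brightest probe stood for a gene. Names followed the file, updated through the RefSeq gene table (GRCm38.p6, names only) for 31381 probes. Errors are the scanner software's, carried to the log2 scale, and cover spot measurement alone. For bright single spots the error was nearly constant, at 0.144 per array. For a probe in several spots it shrinks with their number, as if spots were independent, so the smaller Cdkn1a error reflects its 10 copies. The 95% intervals rest on these errors. The number of arrays limits the precision. Probes printed in at least 8 copies had a median standard deviation of 0.07 (control) and 0.06 (C26). No p-value is given.

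The members, the 10 pathway lists and 10 marker lists, and the naming rule (all members, and from each list examples among the genes past 2-fold and the 2 highest and 2 lowest) were chosen with earlier results of these data known. Further list genes are named for their role and were chosen after their values were seen. Some list genes are not reported here. The p53 motifs were added after the promoter sequences were seen. Alternatives were normexp with an offset of 50 (limma 3.58.1, R 4.3.3), quantile, median and other percentile scaling, loess with a span of 0.3, the deposited table, outlier spots kept, probe averaging, other filters and other thresholds. The summaries were tested on simulated data and used Python 3.11.15, numpy 2.4.6, pandas 2.3.3, statsmodels 0.14.6 and matplotlib 3.10.9.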

Additional observations from a re-analysis of the deposited data

How the results depend on the processing

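All 7 genes kept the sign of their ratio under the alternatives run, except Mdm2, which was negative under 3 of them. Among those 3, the deposited table and quantile normalization gave the same value. The Cdkn1a log2 ratio was 1.70 with normexp correction and 0.64 with the mean over its 3 probes, 2 of which were dim. The count of members at least 2-fold higher was 2 under every scaling and filter, and 1 at the 3-fold threshold. Over all measured genes the counts of 245 higher and 226 lower became 130 and 65 after normexp, 1579 and 1316 where dim probes were kept, 859 and 949 at 1.5-fold and 68 and 45 at 3-fold; with a signal of at least 50 on both arrays 139 were lower. The filters change the number of genes counted and the thresholds the size asked for; for normexp the cause was not tested. The share of higher genes among those past 2-fold was 52.02% in the main setting, 66.67% with normexp and 43.03% to 47.53% with the other scalings. Of 189 list medians under alternatives, 185 moved by no more than the median error of the list's genes. No paired analysis was possible because each group has 1 array. The absence of replicates limits every ratio here. Low signal also limits those of Chek2, Cdkn2a and the probe listed under Cdkn1a variant 2.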

Other observations

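Genes of the apoptosis machinery, which p53 can also engage, showed no 2-fold difference. Such differences were seen upward in only 1.25% of all measured genes and downward in 1.15%. Of 15 listed, 13 were measured, 6 above 0 and 7 below, where 56.45% of all measured genes were above 0. Their median log2 ratio was -0.01. The survival genes Bcl2l1 (BCL-XL) and Mcl1 were the highest, at 0.65 and 0.37, and other probes gave 0.33 and 0.60. Birc5 (survivin), an inhibitor of apoptosis that is expressed in dividing cells, was the lowest at -0.84 from dim signals of 49.9 and 26.4. Bcl2l11 (BIM) stood above background for C26 only, with a nominal bound of 1.08-fold higher. With 1 array per group these values stand without a test.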
